A study of Mus musculus with 16 samples.

Results

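Acetylation of histone H3 at lysine 27 (H3K27ac) was compared between early T helper 2 (Th2) cells without Bcl11b and early Th2 cells that kept it. The comparison took every H3K27ac sample that the labels call early, which are 2 knockout (KO) and 2 wild-type (WT) libraries, 4 of the 16 samples of the series. Every sample of the series came from C57BL/6 mice with the genotype Bcl11b[fl/fl]-CreERT2, so the WT cells carried the floxed alleles and the inducible Cre recombinase as well. Early cells spent 4 days in Th2 culture, KO cells in the presence of 4-hydroxytamoxifen (4-OHT), which switches this Cre on, and WT cells without it. Because no WT culture received 4-OHT, the loss of Bcl11b and the exposure to 4-OHT cannot be told apart. The isolated cells are labelled naive CD4 T cells, while the sorting label reads CD4+CD44high, and high CD44 is a marker of antigen-experienced cells. Whether replicates were separate cultures or animals is not given in the sources used here, so a p-value can speak only of how far these libraries scatter, and that scatter may be technical.

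Bcl11b is a zinc finger transcription factor that developing T cells need to commit to the T lineage, and precursors that lose it can take on features of natural killer (NK) cells. GATA3, named beside Bcl11b in the title of the series, is the regulator that defines Th2 cells and acts on the linked genes for the Th2 cytokines, whereas T-bet (Tbx21) drives the Th1 fate. H3K27ac marks active promoters and enhancers, and long unbroken stretches of it lie over genes that are central to a cell's identity. The title also names the question, which is how Bcl11b bears on the Th1 and Th2 programmes.

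Each library came as a list of islands, which are stretches of the mouse genome (build mm9) enriched for the mark, without read counts. The sequencing depth is therefore unknown, and "listed at 0" below means that a list holds no island at that place. The lists held 26548 and 28410 islands in WT and 32112 and 28126 in KO, over 107.3 and 102.8 Mb in WT and 104.8 and 108.2 Mb in KO. Values are given in the order replicate 1, replicate 2, and WT 1, WT 2, KO 1 and KO 2 name the early libraries. The unit of comparison was the number of kb covered by islands in each 10-kb bin of the genome, on a log2(kb + 0.5) scale. Of 39126 bins tested with limma across the 8 H3K27ac libraries of both stages, 3588 (9.17%) were higher in early KO and 2123 (5.43%) lower, at a Benjamini-Hochberg adjusted p under 0.05. Over all tested bins the median log2 difference was -0.03. Without KO 1 the higher bins numbered 2384, and the lower bins numbered 1041 without WT 1 and 1256 without WT 2. In 75.1% of the bins called higher both WT lists were at 0, and in 56.2% of those called lower both KO lists were at 0. A call at such a bin reports the appearance or the loss of a listed island, and no fold is given for it. A bin was tested if at least 2 of the 8 libraries covered it. Some bins thus entered only through the 2 lists in which they were high, and their p is no independent support for a change.

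Genes were placed on mm9 from recalled positions rounded to 10 kb, because no mm9 annotation was used. A locus is the set of 10-kb bins over the recalled gene body plus 1 bin on either side, and "flank" names such an outer bin. The genes of 4 lists were read at these loci: 20 Th1 genes, 20 genes of cytotoxic and NK cells, 30 Th2 genes and 37 T-lineage genes, of which 36 were placed. At the defining T-cell loci all 4 early lists held islands, with 23.4 and 25.2 kb in WT and 26.0 and 24.8 kb in KO at Cd4. The locus of Cd8a, which marks the CD8 lineage, was listed at 0 in all 4. That of Cd8b1, the other CD8 marker, held 1.8 and 1.8 kb in WT and 1.4 and 1.4 kb in KO. For B, myeloid and other cells 10 of 14 marker genes were placed, with a summed covered length of 41.2 and 46.6 kb in WT and 57.4 and 53.0 kb in KO. Of these 10, Ms4a1 and Pax5 of B cells and Lyz2 of myeloid cells were at 0 in all 4 lists. Of 22 tested bins at these markers 3 (13.6%), at Spi1, Itgam and Ebf1, were called higher in KO and 1 (4.55%), at Cd79a, lower, against 9.17% and 5.43% of all bins. The median log2 difference over these 22 bins was 0.68, and the part of such cells in the results below was not tested.

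Th1 genes more often gained listed acetylation than lost it, as did all tested bins and the bins at markers of B, myeloid and other cells. Of the 20, 10 had at least 1 bin called higher in KO, 1 had a bin called lower, 8 had none and 1 had no bin that could be tested. These were 10 of 68 tested bins (14.7%, against 9.17% of all bins) higher and 1 (1.47%, against 5.43%) lower. The median log2 difference over the 68 bins was 0.12. Over the 22 bins at markers of B, myeloid and other cells it was 0.68, with 13.6% called higher and 4.55% lower. At 6 of the 10 rising genes, both WT lists were at 0 in the bin with the smallest p.

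Tbx21, which encodes T-bet, the master regulator of Th1 cells, had 1 of 3 tested bins called higher. In that bin, within the gene (chr11:96970001-96980000), islands covered 0 and 0 kb in WT and 3.8 and 2.4 kb in KO (limma adjusted p = 0.000633). The neighbouring island of the locus was held by all 4 lists, at 6.8 and 9.4 kb in WT and 8.8 and 9.2 kb in KO, and there the genotypes overlapped. The other T-box gene of the list, Eomes, which directs cytotoxic differentiation, was at 0 in both WT lists over its whole locus. Its called bin (chr9:118390001-118400000) held 2.4 and 2.2 kb in KO (limma adjusted p = 0.000447).

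Of the chemokine and receptor genes in the Th1 list, 4 whose calls were lost in no fit without 1 library are given here. Ccl5, a chemokine that attracts effector T cells, had 0 kb in both WT lists and 7.0 and 6.0 kb in KO in its bin (chr11:83340001-83350000, limma adjusted p = 0.00649). The receptor for interleukin 18, a cytokine that raises interferon gamma, has 2 chains, Il18r1 and Il18rap. The called bin of Il18r1 held 0 and 0 kb in WT and 1.8 and 2.0 kb in KO, and that of Il18rap 0 and 0 kb and then 1.2 and 2.0 kb (limma adjusted p = 0.000448 and 0.00131). Over their whole windows WT held 0.0 and 1.0 kb at Il18r1 and 3.0 and 2.8 kb at Il18rap, against 1.8 and 3.8 kb and 6.0 and 7.2 kb in KO. The receptor genes Il12rb2, Il27ra, Ifngr1, Ifngr2 and Cxcr6 had no called bin. A flank bin of Cxcr3, a chemokine receptor of Th1 cells, held 0 and 0 kb in WT and 1.6 and 1.8 kb in KO (limma adjusted p = 0.00049). At each of these bins both KO values lay above both WT values, as they did in 24.4% of all tested bins. These genes were chosen because no call was lost in a fit without 1 of the 8 libraries, so that stability adds no support. The bin of Cxcr3 was covered in KO 1 and KO 2 alone, so it was not tested when either was left out. Here and below, a bin that such a fit did not test is not counted as lost. When each list was limited to the 50% of islands with the best scores, the called bins of Tbx21 and Il18r1 were at 0 in all 4 early lists (log2 -0.04), and with lists of equal length Il18rap gave an adjusted p of 0.442.

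Other calls of the Th1 list were less stable. Hlx, a homeobox factor that works with T-bet, had 1.6 and 2.0 kb in WT and 3.4 and 3.8 kb in KO (log2 0.80, SE 0.13, limma adjusted p = 0.0094), and the call was lost without KO 2 or WT 1 (adjusted p 0.057 to 0.0613). Il12rb1, the receptor chain shared by interleukins 12 and 23, was the 1 Th1 gene with a bin called lower, at 3.8 and 2.4 kb in WT and 1.2 and 1.2 kb in KO (limma adjusted p = 0.0312). Leaving out KO 1, KO 2, WT 1, late KO 1, late KO 2 or late WT 1 ended that call (adjusted p 0.0572 to 0.139). Ifng, the gene of the signature Th1 cytokine, was listed at 0 in all 4 early lists within 10 kb of the gene. No change in H3K27ac could therefore be read at Ifng itself.

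**Figure D1:**
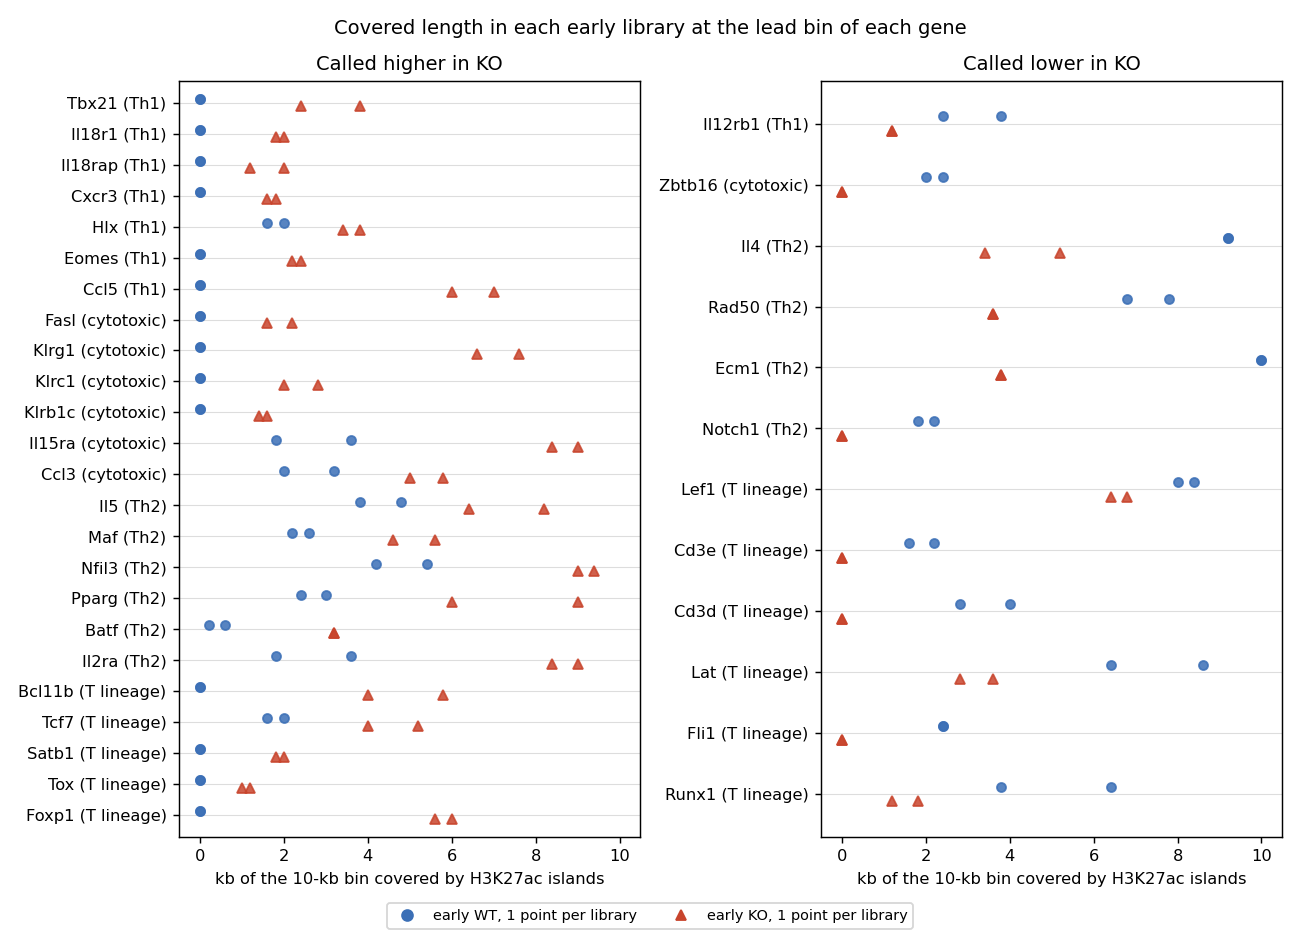
Kilobases of a 10-kb bin covered by H3K27ac islands in each early library (circles WT, triangles KO), for the bin with the smallest p at each gene shown, all of which had a call. At Tbx21, Eomes, Ccl5 and Klrg1 both WT points lie at 0, while at Il4, Ecm1 and Lat the KO points lie to the left of the WT points.

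Among genes of cytotoxic and NK cells, which share effector functions with Th1 cells, 6 of 20 had bins called higher, 1 had a bin called lower, 8 had none and 5 had no bin that could be tested. Of 42 tested bins 9 (21.4%, against 9.17% of all bins) were called higher and 1 (2.38%, against 5.43%) lower. The median log2 difference was 0.18.

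Klrg1, an inhibitory lectin-like receptor of effector T cells and NK cells, accounted for 4 of those 9 bins. Its 40-kb locus was listed at 0 in both WT lists and held 15.8 and 19.4 kb in KO. The 4 bins (chr6:122210001-122250000 in all) were each called higher, with limma adjusted p between 0.000343 and 0.00396. With the 50% best-scoring islands of each list 2 of these bins were at 0 in all 4 early lists (log2 -0.04). In the map of islands along the locus, the 2 KO lists hold islands at the same 5 places. DNase islands did not mark this locus in the early lists, at 0.0 kb in both WT lists and 0.0 and 0.6 kb in KO.

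Other lectin-like receptors gave smaller islands. A flank bin of Klrc1, which encodes the NKG2A receptor, held 0 and 0 kb in WT and 2.0 and 2.8 kb in KO (limma adjusted p = 0.000478). Klrb1c, which encodes the NK1.1 antigen, had a bin with 0 and 0 kb in WT and 1.4 and 1.6 kb in KO (limma adjusted p = 0.000583). Klrd1 was listed at 0 in all 4 lists, and Klrk1 held 0.8 kb in KO 1 alone. Fasl, the death ligand of killer cells, had a flank bin with 0 and 0 kb in WT and 2.2 and 1.6 kb in KO (limma adjusted p = 0.00089). These calls, like those at Klrg1, were lost in no fit without 1 library that tested the bin. The called bins of Klrc1, Klrb1c and Fasl were covered in KO 1 and KO 2 alone. They entered the test through those 2 lists, and without KO 1 or KO 2 they were not tested.

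At the granule genes no bin was called. Gzma, Gzmb, Gzmc and Gzmk, which encode the granzymes, had no called bin, and at Gzmb the lists held 6.8 and 8.4 kb in WT and 10.8 and 9.0 kb in KO, without overlap. Prf1, the gene of the pore-forming perforin, was listed at 0 in all 4 lists and had no bin that could be tested. The chemokine gene Ccl3 had 2.0 and 3.2 kb in WT and 5.8 and 5.0 kb in KO in a flank bin (log2 0.91, SE 0.21, limma adjusted p = 0.0352), a call lost when any library but WT 2 was left out (adjusted p 0.0553 to 0.143). The bin chr2:11620001-11630000, which lies in the windows of both Il15ra and Il2ra, rose from 1.8 and 3.6 kb in WT to 8.4 and 9.0 kb in KO (log2 1.54, SE 0.29, limma adjusted p = 0.018). That call was lost without KO 1 or KO 2 (adjusted p 0.0821 and 0.0894). Zbtb16, which encodes PLZF, the factor of innate-like T cells, was the 1 gene of this list called lower, at 2.0 and 2.4 kb in WT and 0 and 0 kb in KO (limma adjusted p = 0.000507).

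**Figure D2:**
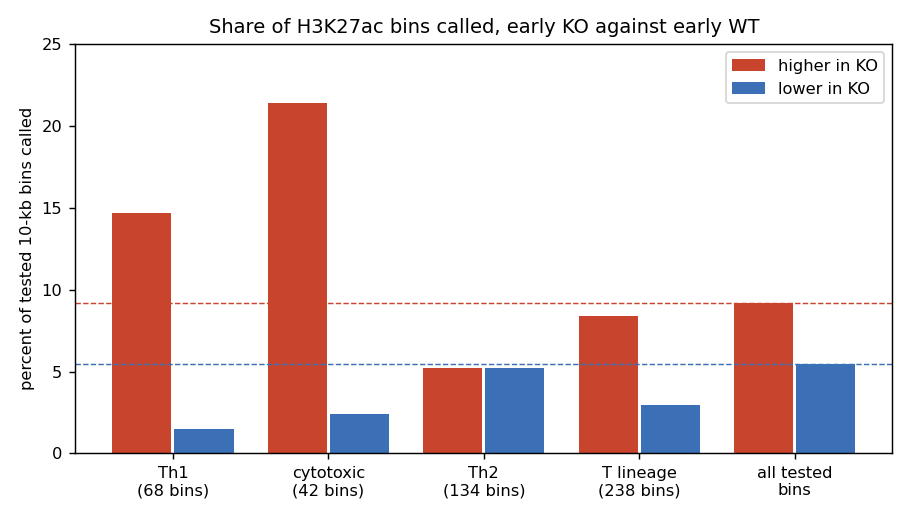
Percent of tested 10-kb bins called higher (red) or lower (blue) in early KO, for the bins of each gene list and for all tested bins, with dashed lines at the levels for all bins. The Th1 (14.7%) and cytotoxic (21.4%) bars for higher bins stand above the 9.17% of all bins, and the Th2 bars are equal at 5.22%. Markers of B, myeloid and other cells, with 13.6% of bins higher, are not drawn.

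Where the promoter sequence of a locus listed at 0 in 1 genotype was at hand, it is shown. Whether the island that appeared or vanished at the locus lay over the promoter was not tested. The sequences are the 250 bases before the start of the gene, from RefSeq on GRCm38.p6, and are not on the scale of the mm9 islands. Capitals mark the letters TGTGGT, a core of Runx sites, and AGATAA, recognised by factors such as GATA3, on either strand. Both motifs were kept after others had been searched in the same sequences. TGTGGT was found in 14% of 32851 promoters of this length and in 5 of 34 promoters of listed genes that rose, and AGATAA in 9.99% of all and in 1 of those 34. Neither was found in the 11 promoters of listed genes that fell.
Eomes, at 0 in WT (chr9:118477939-118478188, plus strand): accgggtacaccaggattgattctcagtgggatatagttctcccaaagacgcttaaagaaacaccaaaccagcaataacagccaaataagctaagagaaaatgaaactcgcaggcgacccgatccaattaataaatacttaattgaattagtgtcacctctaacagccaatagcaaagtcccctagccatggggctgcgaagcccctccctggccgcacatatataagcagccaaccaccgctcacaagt
Klrc1, at 0 in WT (chr6:129678974-129679223, minus strand): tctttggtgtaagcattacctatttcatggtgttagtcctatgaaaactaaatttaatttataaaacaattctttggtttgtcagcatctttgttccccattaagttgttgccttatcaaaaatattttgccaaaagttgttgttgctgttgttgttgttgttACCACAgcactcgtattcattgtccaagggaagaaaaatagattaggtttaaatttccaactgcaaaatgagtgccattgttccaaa
Csf2, at 0 in WT (chr11:54249900-54250149, minus strand): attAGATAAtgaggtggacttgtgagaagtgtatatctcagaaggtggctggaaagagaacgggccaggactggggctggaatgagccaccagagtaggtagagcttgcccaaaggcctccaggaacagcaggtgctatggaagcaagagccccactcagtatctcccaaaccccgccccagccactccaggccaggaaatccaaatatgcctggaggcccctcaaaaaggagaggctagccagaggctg
Il3, at 0 in WT (chr11:54267280-54267529, minus strand): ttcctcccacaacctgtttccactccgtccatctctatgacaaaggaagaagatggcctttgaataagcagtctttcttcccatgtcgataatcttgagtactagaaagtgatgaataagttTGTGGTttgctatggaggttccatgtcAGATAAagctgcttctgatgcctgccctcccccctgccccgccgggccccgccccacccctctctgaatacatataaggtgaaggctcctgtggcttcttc
Il2, at 0 in KO (chr3:37125955-37126204, minus strand): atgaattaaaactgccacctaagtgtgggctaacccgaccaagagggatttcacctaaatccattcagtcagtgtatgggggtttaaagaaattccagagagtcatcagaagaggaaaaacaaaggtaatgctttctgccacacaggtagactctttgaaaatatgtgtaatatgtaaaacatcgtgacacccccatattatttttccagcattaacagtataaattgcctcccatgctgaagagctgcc

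The last 3 sequences belong to cytokine genes of no single fate, which stood outside the 4 lists and were named after their values were seen. Csf2 and Il3, which encode the growth factors GM-CSF and interleukin 3, lie side by side and share the bin chr11:54060001-54070000. It held 0 and 0 kb in WT and 3.6 and 3.6 kb in KO (limma adjusted p = 0.000343). The whole locus of Il2, the T-cell growth factor, went the other way, from 2.2 and 3.2 kb in WT to 0 and 0 kb in KO (limma adjusted p = 0.000518). DNase islands, which were not tested, differed in the same direction at Csf2 and Il2, with 1.8 and 2.4 kb in WT and 4.6 and 4.6 kb in KO at Csf2, and 3.2 and 3.0 kb in WT and 1.0 and 0.4 kb in KO at Il2. At Tbx21, Eomes and Il15ra they differed in the other direction from H3K27ac. DNase islands covered 9.6 and 12.6 kb in WT and 0.6 and 5.0 kb in KO at Tbx21, 2.6 and 6.8 kb and then 0.6 and 2.0 kb at Eomes, and 11.6 and 27 kb and then 1.8 and 6.0 kb at Il15ra. Of the 27 genes of the 4 lists with bins called higher alone, DNase length was lower in both KO lists than in both WT lists at 9, higher at 1 and overlapping at 17. Of the 67 without a called bin it was lower in KO at 22, higher at 0 and overlapping at 45. The DNase list of KO 1 held 24286 islands against 37525 to 39736 in the other 3, and its part in these counts was not tested.

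Th2 genes went in both directions. Of 30, 6 had bins called higher, 4 had bins called lower, 19 had none and 1 had no bin that could be tested. Of 134 tested bins 7 (5.22%) were higher and 7 (5.22%) lower, below the 9.17% and close to the 5.43% of all bins. The median log2 difference was -0.04.

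Gata3 itself showed no called bin. Its locus held 32.0 and 36.2 kb in WT and 36.2 and 35 kb in KO, so the genotypes overlapped. Its main stretch (chr2:9773401-9807200) held 28.8 and 32.6 kb in WT and 31.4 and 31.2 kb in KO. Stat6, Il4ra and Irf4, which carry or act on the interleukin 4 signal, had no called bin either.

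The linked cytokine genes Il4, Il13 and Il5, with Rad50 between them, changed unevenly along the locus. Il4, Il13 and part of Rad50 lay in 1 stretch (chr11:53397201-53451600) of which islands covered 52.8 and 53.4 kb in WT and 45.4 and 49.2 kb in KO. Within it, the called loss was at the flank of Il4 (chr11:53410001-53420000), with 9.2 and 9.2 kb in WT and 3.4 and 5.2 kb in KO (log2 -1.08, SE 0.20, limma adjusted p = 0.0164). That call was lost without KO 1, WT 1, WT 2 or late WT 1 (adjusted p 0.0545 to 0.0959). Il13 had no called bin, at 25.4 and 24.8 kb in WT and 24.2 and 25 kb in KO.

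Rad50, a DNA repair gene whose introns hold the control region of the Th2 cytokine genes, had 2 bins called lower. Whether these bins lie in that control region was not tested. The bin chr11:53510001-53520000 held 7.8 and 6.8 kb in WT and 3.6 and 3.6 kb in KO (log2 -0.96, SE 0.11, limma adjusted p = 0.0018). The bin chr11:53490001-53500000 held 2.0 and 2.8 kb in WT and 0 and 0 kb in KO (limma adjusted p = 0.00315). The first of these had an adjusted p of 0.48 with the 50% best-scoring islands, and the second 0.387 with lists of equal length. Beyond Rad50 the direction turned. A flank bin of Il5, the eosinophil growth factor, held 4.8 and 3.8 kb in WT and 6.4 and 8.2 kb in KO (log2 0.66, SE 0.14, limma adjusted p = 0.0276), a call lost without KO 2, WT 2 or any 1 of the 4 late libraries (adjusted p 0.0517 to 0.133).

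At 4 transcription factors of the Th2 list a bin rose. In that bin, Maf, which activates Il4, had 2.6 and 2.2 kb in WT and 5.6 and 4.6 kb in KO (log2 0.91, SE 0.15, limma adjusted p = 0.00983). Pparg, a nuclear receptor of type 2 cells, had 3.0 and 2.4 kb in WT and 9.0 and 6.0 kb in KO (log2 1.26, SE 0.22, limma adjusted p = 0.0115). Batf, an AP-1 factor that pairs with Irf4, had 0.6 and 0.2 kb in WT and 3.2 and 3.2 kb in KO in a flank bin (limma adjusted p = 0.00205). The basic leucine zipper factor Nfil3 had 4.2 and 5.4 kb in WT and 9.0 and 9.4 kb in KO (log2 0.84, SE 0.13, limma adjusted p = 0.00645). These 4 calls did not depend on any 1 library, though a second bin of Batf was lost without KO 1, KO 2 or WT 2 (adjusted p 0.081 to 0.0959). With lists of equal length Nfil3 had an adjusted p of 0.154, and with the 50% best-scoring islands 0.205.

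Falls in the Th2 list outside the cytokine locus were at Ecm1 and Notch1. Ecm1, a secreted matrix protein that Th2 cells use to leave lymph nodes, had a flank bin (chr3:95550001-95560000) filled in both WT lists, at 10 and 10 kb, and covered for 3.8 and 3.8 kb in KO (log2 -1.33, SE 0.09, limma adjusted p = 0.000391). The neighbouring bin was also called, but that call was lost when any library but late WT 2 was left out (adjusted p 0.0576 to 0.229). Notch1, the receptor that feeds into both Th1 and Th2 differentiation, had 2 bins at 0 in both KO lists. The first held 2.2 and 1.8 kb in WT (limma adjusted p = 0.000472). The second held 8.2 and 5.2 kb in WT (limma adjusted p = 0.00938), and its call was lost without KO 1, KO 2 or WT 1 (adjusted p 0.0562 to 0.0632).

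Most T-lineage genes had no called bin, and the called ones split by direction. Of 36 placed genes 5 had bins called higher, 4 lower, 2 both, 22 none and 3 no bin that could be tested. Of 238 tested bins 20 (8.4%) were higher and 7 (2.94%) lower, each below the share of all bins. The loci of Cd4, Zbtb7b, Cd5, Cd28, Ets1 and Ikzf1 had no called bin.

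Bcl11b, the targeted gene, kept a stretch of about the same length in all 4 lists, at 95 and 90.4 kb in WT and 95.4 and 95.6 kb in KO. Islands do not show which bases were deleted, so this checks nothing about the knockout. In the flank of the gene lay a separate region (chr12:109116801-109135800) with 0 and 0 kb in WT and 10.8 and 19 kb in KO. Its bin inside the window held 0 and 0 kb in WT and 4.0 and 5.8 kb in KO (limma adjusted p = 0.000356). The call was lost in no fit without 1 library that tested the bin. No late list covered the bin, so it was not tested when either early KO library was left out.

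**Figure D3:**
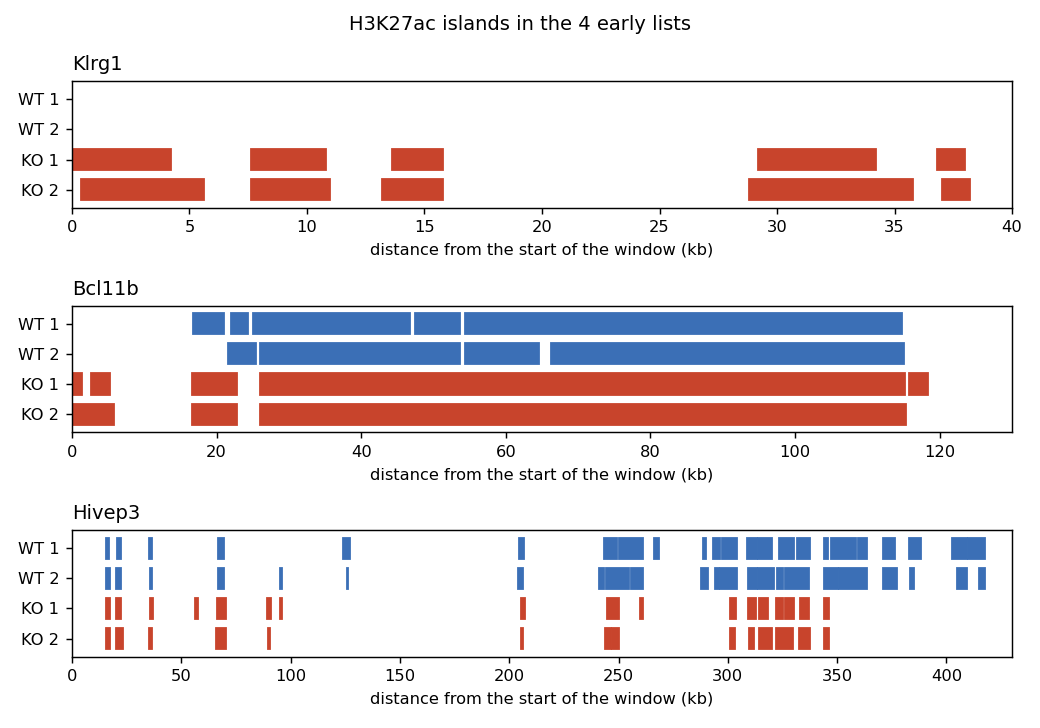
H3K27ac islands of the 4 early lists as bars along the windows of Klrg1, Bcl11b and Hivep3, by distance in kb from the start of each window. Klrg1 has islands in the 2 KO lists alone, Bcl11b has a long stretch in all 4 lists and an island at the left edge in KO, and the right part of Hivep3 is filled in WT and sparse in KO.

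Foxp1, a forkhead factor that keeps T cells quiescent, had the most called bins of the 4 lists and also the widest window. Over its 630-kb window islands covered 61.4 and 69.6 kb in WT and 129.2 and 150.8 kb in KO, and 10 of 29 tested bins were called higher (9.17% of all bins were). It accounted for 10 of the 20 bins called higher in the T-lineage list. The bin with the smallest p (chr6:99360001-99370000) held 0 and 0 kb in WT and 6.0 and 5.6 kb in KO (limma adjusted p = 0.000343). Of the 10 calls, 8 were lost in no fit without 1 library. The bin with the smallest p was covered in no late list, so it was not tested without KO 1 or KO 2. The ninth was lost without KO 2, WT 1 or WT 2 (adjusted p 0.0564 to 0.0961) and the tenth without KO 2 or WT 2 (adjusted p 0.0784 and 0.0873).

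Other T-lineage regulators with gains were Satb1, Tox and Tcf7. Satb1, a chromatin organiser of T cells, had 3 bins called higher. The first, a flank bin, held 0 and 0 kb in WT and 2.0 and 1.8 kb in KO (limma adjusted p = 0.000491). Its call was lost in no fit without 1 library that tested the bin. The second was lost without KO 1, KO 2 or WT 1 (adjusted p 0.0545 to 0.0603) and the third without KO 1, KO 2 or WT 2 (adjusted p 0.0701 to 0.135). Tox, a factor of CD4 T-cell development, had 6.6 and 6.8 kb in WT and 19.8 and 12.2 kb in KO over its window, with 3 bins called higher. Its bin with the smallest p had 0 and 0 kb in WT and 1.0 and 1.2 kb in KO (limma adjusted p = 0.00107), and the weakest of the 3 calls was lost without any 1 early library (adjusted p 0.0898 to 0.117). Tcf7, which encodes TCF-1, had 2.0 and 1.6 kb in WT and 5.2 and 4.0 kb in KO in 1 bin (log2 1.1, SE 0.22, limma adjusted p = 0.0206), a call lost without KO 1, WT 1 or WT 2 (adjusted p 0.0517 to 0.0724).

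Part of the losses in this list lay at genes of T-cell receptor signalling. The neighbours Cd3e and Cd3d, which encode chains of the receptor complex, share a bin with 2.8 and 4.0 kb in WT and 0 and 0 kb in KO (limma adjusted p = 0.0106), a call lost without KO 1, KO 2 or WT 2 (adjusted p 0.058 to 0.0661). A second bin in the flank of Cd3e held 2.2 and 1.6 kb in WT and 0 and 0 kb in KO (limma adjusted p = 0.00138) and was kept without any 1 library. Over the whole window of Cd3e islands covered 17.6 and 17.8 kb in WT and 11.4 and 11.6 kb in KO. Lat, the adaptor that links the receptor to its signalling cascade, had 8.6 and 6.4 kb in WT and 2.8 and 3.6 kb in KO in its called bin (log2 -1.15, SE 0.17, limma adjusted p = 0.00577), and the adjusted p was 0.0572 without KO 1, 0.0983 with lists of equal length and 0.0728 with the 50% best-scoring islands. Lck, Zap70 and Cd247 of the same signalling chain had no called bin.

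The remaining called genes encode transcription factors. Runx1, which acts with the core binding factor throughout T-cell development, had 96.8 and 93.0 kb in WT and 63.2 and 76.4 kb in KO over its 250-kb window, with 2 bins called lower and 1 higher. Its bin with the smallest p held 6.4 and 3.8 kb in WT and 1.2 and 1.8 kb in KO (log2 -1.50, SE 0.26, limma adjusted p = 0.0114), with an adjusted p of 0.0885 without KO 1. The other 2 calls were lost without any 1 early library (adjusted p 0.0607 to 0.146 and 0.0609 to 0.0816). Fli1, an Ets factor, had a bin with 2.4 and 2.4 kb in WT and 0 and 0 kb in KO (limma adjusted p = 0.000375), and another called higher that was lost without any 1 early library (adjusted p 0.0771 to 0.165). Lef1, a partner of TCF-1, had a flank bin with 8.4 and 8.0 kb in WT and 6.4 and 6.8 kb in KO (log2 -0.33, SE 0.08, limma adjusted p = 0.0357), and leaving out any 1 of the 8 libraries ended the call (adjusted p 0.0534 to 0.255).

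The 8 bins with the greatest rise were at 0 in both WT lists, and the 8 with the greatest fall at 0 in both KO lists. The first rise (chr4:107800001-107810000) went from 0 kb in WT to 8.4 and 8.2 kb in KO (limma adjusted p = 0.000367). Others lay at chr13:41010001-41020000, with 7.0 and 7.8 kb in KO, at chr1:95280001-95290000, with 6.2 and 7.6 kb, and in the bins chr10:36940001-36950000 and chr10:36950001-36960000, with 6.8 and 9.0 kb and 6.8 and 6.6 kb. The bin chr3:108650001-108660000 held 6.2 and 8.0 kb in KO, the bin of Klrg1 was among the 8, and so was a bin beside Ifitm1 (chr7:148160001-148170000), a gene of the interferon-induced membrane proteins, with 6.8 and 8.2 kb in KO (limma adjusted p = 0.000343). The calls were lost without any 1 early library, late KO 1 or late KO 2 at chr10:36940001-36950000 (adjusted p 0.0618 to 0.11), and without KO 2 at chr3:108650001-108660000 (adjusted p 0.0576).

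Of the 8 greatest falls 3 lay in 2 genes that encode regulators of transcription, both named after their values were seen. At Hdac4, a histone deacetylase, the bins chr1:93870001-93880000 and chr1:93880001-93890000 held 9.4 and 10 kb and 10 and 8.6 kb in WT and 0 and 0 kb in KO. Over the window of Hdac4 8 of 25 tested bins were called lower (5.43% of all bins were), and islands covered 171.8 and 140.6 kb in WT and 97.0 and 99.8 kb in KO. Of these 8 calls 2 were lost in no fit without 1 library. Leaving out KO 1 or KO 2 left 3 of the 8, leaving out WT 1 or WT 2 left 4, and leaving out late KO 1 or late KO 2 left 5. At Hivep3, a large zinc finger protein, 11 of 25 tested bins were called lower, and the length went from 109.4 and 103.2 kb in WT to 46.4 and 44.6 kb in KO. Of the 11 calls 8 were lost in no fit without 1 library. The bin chr4:119740001-119750000 there held 8.8 and 9.4 kb in WT and 0 and 0 kb in KO (limma adjusted p = 0.000343). No late list covered this bin, so it was not tested without WT 1 or WT 2.

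The 5 other bins lay in no listed window. They were at chr9:55960001-55970000, chr19:29200001-29210000, chr12:74860001-74870000, chr3:135310001-135320000 and chr5:116090001-116100000, with 7.4 to 10 kb in each WT list and 0 in each KO list. The last of these and chr3:135310001-135320000 kept their call without any 1 library. The Hdac4 bin chr1:93870001-93880000 and the bins on chromosomes 12 and 19 each lost their call without 6 of the 8 libraries, and the bin on chromosome 9 without any 1 early library. Their adjusted p was then 0.0623 to 0.109, 0.0568 to 0.134, 0.0643 to 0.112 and 0.0690 to 0.0935.

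Merged over the 4 early lists, islands formed 33678 regions, of which 20950 (62.2%) were in all 4 lists. Regions in both KO lists and neither WT list numbered 3515 (10.4%), and those in both WT lists and neither KO list 1413 (4.2%). The first class became 6296 without KO 2, and the second 2869 without WT 1 and 2385 without WT 2, since fewer lists then had to hold an island. With 2 libraries a genotype the smallest two-sided exact permutation p is 0.33, so these counts carry no p.

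The regions of KO alone were short, with a median of 2.2 kb against 3.2 kb for WT alone and 4.0 kb for those in all 4 lists. Of KO-alone regions 35.2% lay within 10 kb of a region in all 4 lists, and of WT-alone regions 49.4%. Open chromatin was read as DNase islands from samples the choice of regions did not use. Of KO-alone regions 43.6% and 49.4% held a DNase island in the WT lists and 39.8% and 67.4% in the KO lists. For WT-alone regions the shares were 26.1% and 32.3% in WT and 3.4% and 13.9% in KO. The part of the short DNase list of KO 1 in these shares was not tested either.

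Late cells, which had 4-OHT only after the first culture and a day of rest, gave a further reading from other libraries. Of KO-alone early regions 65.4% were in both late KO lists and 35.3% in both late WT lists, while of WT-alone regions 9.2% were in both late KO lists and 25.8% in both late WT lists. In late cells 1561 of the 39126 bins (3.99%) were higher in KO and 1081 (2.76%) lower. Of the 3588 bins higher in early KO, 868 (24.2%) were also called higher in late KO and 37 (1.03%) lower. Of the 2123 bins lower in early KO, 253 (11.9%) were also called lower in late KO and 26 (1.22%) higher. Of the bins with the smallest p at each gene of the Th1, cytotoxic, Th2 and T-lineage lists, those called the same way in late cells were at Il18r1 (late WT 0 and 0 kb, late KO 2.6 and 2.2 kb), at Eomes (0 and 0 kb, then 2.0 and 2.0 kb) and at Zbtb16 (2.4 and 1.8 kb, then 0 and 0 kb), with limma adjusted p of 0.00105, 0.0011 and 0.00116. At the lead bin of Klrg1 late WT cells held 4.0 and 5.0 kb and late KO cells 7.4 and 6.2 kb (limma adjusted p = 0.154). The change in KO differed between the stages in 3966 of the 39126 bins (10.1%), by the interaction term of the fit.

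Island width as a whole did not separate the genotypes. The median island was 3.0 and 2.6 kb wide in WT and 2.4 and 2.8 kb in KO, and the widest was 84.4 to 91.8 kb in the 4 lists. By the median and by the 90th percentile (7.4 and 6.6 kb in WT, 6.0 and 7.0 kb in KO), WT 1 had the widest islands and KO 1 the narrowest, and the other library of each genotype lay between them. In the 20950 regions in all 4 lists limma called 0 (0%) wider or narrower in KO, with a smallest adjusted p of 0.0892, while 2093 were wider and 1475 narrower at an unadjusted p under 0.05 (17% in all). The median absolute log2 difference in covered length was 0.23 between the WT lists, 0.19 between the KO lists and 0.28 to 0.29 between a KO and a WT list. With 1 library left out at most 53 regions were called wider (without WT 1) and at most 72 narrower (without KO 2), and with lists cut to equal length 89 were wider and 80 narrower.

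**Figure D4:**
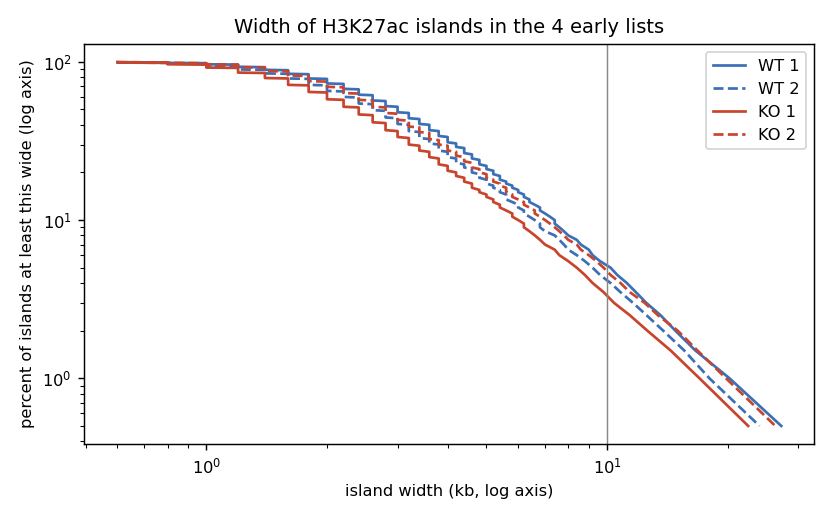
Percent of islands at least as wide as the value on the horizontal axis, for the 4 early lists, both axes logarithmic and a line at 10 kb. At the median WT 1 lies farthest right (3.0 kb) and KO 1 farthest left (2.4 kb), while in the broad tail the curves of WT 1 and KO 2 cross (98th percentile 14.8 and 15 kb) and the widest island of WT 1 (84.4 kb) is the shortest of the 4.

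Broad domains were defined as merged islands of at least 10 kb. The lists held 1408 and 1209 such islands in WT and 1088 and 1378 in KO, so the genotypes overlapped. They merged into 1920 domains, of which 675 were at least 10 kb in all 4 lists, 125 (6.51%) in both KO lists and neither WT list, and 108 (5.62%) in both WT lists and neither KO list. A single island had to reach 10 kb, so a list that covered a domain with shorter islands alone counted as lacking it. These classes can therefore differ by gaps between islands as well as by covered length. The first class became 211 without WT 1, 317 without KO 1 and 191 without KO 2, and the second 257 without WT 1, 379 without WT 2 and 219 without KO 2. Nearly all domains of 1 genotype were also marked in the other, over a shorter length. None of the 125 lacked an island in WT altogether and 1 of the 108 lacked one in KO, and the median difference in covered length was 3.1 kb in the first class and -3.8 kb in the second.

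The widest domains of KO alone included Smad7, an inhibitor of transforming growth factor beta signalling that was named after its values were seen (24.2 and 22.6 kb in WT, 27 and 27.4 kb in KO), and a stretch within Foxp1 (chr6:99317201-99341200, 14.2 and 19.4 kb in WT, 24.0 and 23.4 kb in KO). In no listed window lay the other 3 of the first 5, which were chr2:167182001-167210200 (18.4 and 17.6 kb in WT, 28.0 and 26.2 kb in KO), chr19:57162801-57186200 (16.8 and 14.6 kb, then 22.0 and 23.4 kb) and chr4:134304401-134326600 (15.2 and 17.8 kb, then 21.0 and 21.8 kb). Rank 9 was a stretch of Hdac4 outside its bins with the greatest falls (chr1:93943601-93964600), with 18.8 and 16.2 kb in WT and 19.6 and 21 kb in KO. Prdm1, which encodes the repressor Blimp-1, was rank 10 with 17.2 and 17 kb in WT and 20.2 and 20.2 kb in KO. Further down, Cd274, the gene of the checkpoint ligand PD-L1, also named after its values were seen, had 3.4 and 6.0 kb in WT and 10.6 and 13.2 kb in the KO lists.

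Of the domains of WT alone, the first (chr15:85920201-85956400) was covered for 29.8 and 36.2 kb in WT and 14.2 and 23.4 kb in KO. Next came chr19:29204401-29233000 with 28.0 and 27.2 kb in WT and 13.4 and 13.8 kb in KO, and the fifth (chr18:24025001-24050400) had 23.8 and 24.4 kb in WT and 4.0 and 10 kb in KO. Those at chr8:74864601-74892600 and chr17:32178001-32206400 had 27.4 and 26.2 kb and 28.4 and 20.4 kb in WT and 16.6 and 20 kb and 16.6 and 16.4 kb in KO. The domain with no island in KO lay in Hivep3 (chr4:119737401-119753600, 15 and 15.6 kb in WT), and another domain of Hivep3 had 16.4 and 16.6 kb in WT and 7.0 and 5.2 kb in KO.

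**Figure D5:**
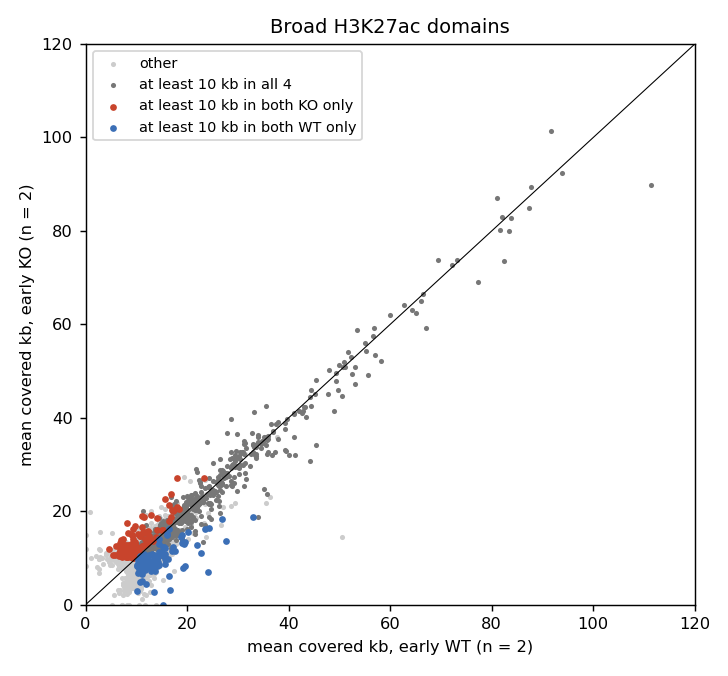
Mean covered kb of each of 1920 broad H3K27ac domains in early WT (horizontal) and early KO (vertical), with the line of equality. Domains of at least 10 kb in both KO lists alone (red) and both WT lists alone (blue) lie above and below the line, and 3 of the 125 red and 13 of the 108 blue points differ by at least 2-fold. A blue point, in Hivep3, is at 0 in KO.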

How the data were processed

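The 4 early H3K27ac libraries were compared, with the 4 late ones in the same fit and early DNase lists for a further reading. The tools named are CASAVA 2.18, Bowtie2 and SICER 1.1, and the genome is mm9, per the submitters' processing notes. The authors deposited, for each library, the chromosome, start and end of every island and a score. The deposited score was used only to rank islands within a list, and the deposited coordinates gave all lengths. Control library, duplicate rate and read number are not given in the sources used here, so depth is unknown.

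Covered kb per 10-kb bin were fitted as log2(kb + 0.5) with limma 3.58.1 (trend) over 4 groups of 2, for bins covered in at least 2 of 8 libraries, each library centred on its median over bins that all 8 cover. Where both lists of a group are at 0, the p rests on the spread of the other groups and of other bins. Some bins passed the filter through the 2 lists of 1 early group alone. Among these were the called bins of Cxcr3, Fasl, Klrc1, Klrb1c, Il2 and Bcl11b, that shared by Csf2 and Il3, and the lead bin of Foxp1. Leaving out 1 of those 2 lists removed the bin from the fit, and it was then not counted as lost. Late values at the lead bins of Fli1, Notch1, Satb1 and Tox are not given here, so these may have passed in the same way. Their p is in that case no independent support for a change. Regions merge islands that overlap or touch. Scripts ran in Python 3.11.15 and R 4.3.3 and were tested on simulated data.

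No mm9 annotation was given, so the planned fit per gene was replaced by the bin fit. The mm9 positions of 146 genes were written from general knowledge to the nearest 10 kb. Their order along chromosomes was checked against the GRCm38.p6 gene table (0 of 126 neighbouring pairs in another order). Each was also compared with early WT 1 islands, through the shift between the recalled position and that of GRCm38.p6. No position was moved, but Ahr and Nrp1 were left out on this check, which used values of these data, and genes whose position was in doubt were not placed. A wrong position would assign a bin to the wrong gene.

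Members and lists were chosen with earlier results of these data known. Named were every Th1, cytotoxic, Th2 or T-lineage gene with a called bin, Bcl11b, Gata3, Tbx21, Ifng and Il4 in any case, the 8 greatest rises and falls among called bins, and the 5 widest domains of each genotype, except that some genes of the lists enter the counts but are not reported here. Hdac4, Hivep3, Smad7, Cd274, Ifitm1, Csf2, Il3 and Il2 fell outside that rule and were named after their values were seen, as were genes without a called bin.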

Additional observations from a re-analysis of the deposited data

Results flagged for a closer look

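The change in KO differed between the early and the late stage, by the interaction term of the same limma fit at an adjusted p under 0.05, in 3966 of 39126 bins (10.1%). The values here are log2 differences, late change minus early change, and where a group is listed at 0 they depend on the 0.5 kb added. A negative value at a bin that rose in early KO means a smaller rise, no rise or a fall in late KO, and a positive value at a bin that fell means a smaller fall, no fall or a rise.

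Among listed genes that rose in early KO, the difference was -2.19 at Tbx21, -1.54 at Il18rap and -2.14 at Cxcr3 of the Th1 list. In the cytotoxic list it was -2.25 at Fasl, -3.37 at Klrg1, -2.52 at Klrc1 and -2.0 at Klrb1c. In the Th2 list it was -0.92 at Maf and -2.14 at Batf. In the T-lineage list it was -3.41 at Bcl11b, -2.26 at Satb1, -1.68 at Tox and -3.65 at Foxp1. At Tbx21 and Klrg1 late WT cells held islands in these bins, and at Cxcr3, Fasl, Klrc1, Klrb1c, Bcl11b and Foxp1 no late list did.

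Among listed genes that fell, the difference was 1.19 at Ecm1, 2.32 at Notch1, 1.94 at Cd3e, 1.51 at Lat and 2.54 at Fli1. Of the bins with the greatest early rise, it was -2.34 at chr4:107800001-107810000, -3.99 beside Ifitm1, -3.94 at chr13:41010001-41020000, -3.55 at chr1:95280001-95290000 and -2.93 at chr10:36950001-36960000. Of those with the greatest fall, it was 5.70 and 4.21 at the 2 bins of Hdac4, 4.26 at Hivep3, 6.68 at chr3:135310001-135320000 and 4.67 at chr5:116090001-116100000.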

How the results depend on the processing

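With the 50% best-scoring islands of each list 1713 bins were higher and 793 lower, 1279 regions were in KO alone, 413 in WT alone and 11761 in all 4. Without 1 library the higher bins ranged from 2384 to 3920 and the lower bins from 1041 to 2121. Shared regions called wider ranged from 0 to 53 and narrower from 0 to 72, and lists of equal length gave 89 and 80. Regions in KO alone then ranged from 3882 to 6296 and in WT alone from 1612 to 2869. Broad domains in KO alone ranged from 170 to 317 and in WT alone from 129 to 379 with 1 library left out. Islands of at least 5 kb gave 485, 482 and 2843 domains in KO alone, WT alone and all 4. Merging islands within 1 kb gave 161, 198 and 911 in the same classes, so WT alone then held more domains than KO alone, unlike in the main setting. KO minus WT was 2640 islands and 1.46 Mb, and 0 and -2.41 with equal lengths. With the best-scoring islands the log2 changed sign at 5 bins, to -0.04 at Tbx21, Il18r1 and 2 of 4 bins of Klrg1, which were then at 0 in all early lists, and to 0.53 at 1 bin of Hdac4. Of 113 named bins 68 lost their call in no fit without 1 library and 54 under no alternative on 10-kb bins. Both counts include bins that a fit did not test because fewer than 2 of its libraries covered them. The 54 also include bins at which the log2 changed sign, such as those of Tbx21 and Il18r1. With the replicate number as a block 3024 bins were higher, 1611 lower, and 3 shared regions narrower. The numbers share no stated animal or day, and same-numbered deviations correlated at -0.024 (early) and 0.052 (late). The fit per gene and its alternatives were not run, since they need an mm9 annotation. Depth limits every absence, because it is unknown.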
